A study of Mus musculus with 44 samples.

Results

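Among the 24 gastric libraries made from knockout (KO) mice, which lack the beta subunit of the acid pump H+/K+ATPase, the fraction of the library taken by messenger RNAs of the mitochondrial genome ran from 1.85% to 14.4%. The libraries at both ends of this range are compared here. The members were chosen by this measured mitochondrial share, the percent of a library's estimated transcript counts on the 13 genes whose symbols start with mt-. The 10 KO libraries with a share of 5% or more are called high (6 KO/PEG and 4 KO/NTZ), and the 12 with a share below 4% are called low (6 KO/PEG and 6 KO/NTZ). The other 2 KO libraries lay between (KO/NTZ_24 at 4.35% and KO/PEG_143 at 4.83%) and were left out. Libraries are named by group and animal number. These classes were made from the measurements themselves and are not groups of the study. The study compared the KO with wild type (WT) mice, 44 libraries in all, and mice given the gastrin receptor antagonist netazepide (NTZ, labelled YF after its earlier name YF476) with mice given its solvent polyethylene glycol (PEG). All KO mice carried the HKATPase KO genotype on the BalbC background and were 13 months old when the gastric corpus was taken, and so were the KO/PEG mice that served as controls for KO/NTZ. The WT mice were of the same background and age. The knockout is present from conception in every cell, and the mice were female by the study's methods. The methods give fewer KO/PEG mice than there are KO/PEG libraries, and nothing in the labels says which libraries share a mouse, so the p-values below measure the spread between these libraries, some of which may be technical.

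The mitochondrial genome is a small circular DNA that encodes 13 proteins, all of them subunits of the respiratory complexes I, III and IV or of the ATP synthase. It is transcribed from both strands into long precursors that are cut into ribosomal, transfer and messenger RNAs. The other respiratory subunits, and every protein that copies, transcribes and translates mitochondrial DNA, are made from nuclear genes. In the stomach the parietal cell, which secretes acid through H+/K+ATPase, is packed with mitochondria and stands apart in this from the mucous cells. Loss of the beta subunit stops acid secretion, raises gastrin and leads to mucosal hyperplasia with spasmolytic polypeptide-expressing metaplasia (SPEM) and more neuroendocrine (NE) cells. Mitochondrial messenger RNAs carry short poly(A) tails, and the libraries were made from RNA bound to poly-T beads.

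A pair of the mitochondrial genes is each read together with its neighbour from one messenger RNA, with overlapping reading frames. Their sequences are printed since the relative counts of the short upstream frames moved with the share. The first is mt-Atp8 at chrM:7766-7969 (GRCm38, plus strand), which encodes a small subunit of the ATP synthase; its last 43 bases, in capitals, are also the first bases of mt-Atp6, which runs to position 8607. The second is mt-Nd4l at chrM:9877-10173 (GRCm38, plus strand), a complex I subunit; its last 7 bases, in capitals, open the reading frame of mt-Nd4, which runs to position 11544.
mt-Atp8: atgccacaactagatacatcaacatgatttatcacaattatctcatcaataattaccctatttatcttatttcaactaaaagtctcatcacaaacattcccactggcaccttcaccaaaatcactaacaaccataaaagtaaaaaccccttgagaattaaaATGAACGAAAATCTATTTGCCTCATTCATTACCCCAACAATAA
mt-Nd4l: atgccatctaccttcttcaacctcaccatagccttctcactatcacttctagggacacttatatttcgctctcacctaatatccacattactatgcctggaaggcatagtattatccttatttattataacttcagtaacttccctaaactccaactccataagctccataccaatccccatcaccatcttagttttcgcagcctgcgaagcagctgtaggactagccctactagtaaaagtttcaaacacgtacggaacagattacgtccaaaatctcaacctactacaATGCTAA
Both are protein-coding genes without introns, and the sequences are the whole coding frames, of 204 and 297 bases.

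Several libraries stand apart or share a number. KO/PEG_46 held the largest share at 14.4%, against 7.80% in the next KO library, and values without it are given below. The number 110 is carried by 1 library of each treatment, and both were low. In the WT, WT/PEG_172_1 and WT/PEG_172_2 carry the same animal number. KO/PEG_52, the low library with the largest share, lay among the high libraries for several values described below. Levels are given in CPM, nuclear counts scaled by each library's nuclear sum and by a normalization factor. The disrupted gene Atp4b, the beta subunit itself, was at 2.44 to 43.4 CPM in the high libraries. It was at 4.52 to 30.95 CPM in the low and at 2271 to 6151 CPM in the WT libraries. No library of either class was near the WT range. Library totals ran from 1.06e+07 to 2.19e+07 estimated counts in the high and from 6.07e+06 to 1.75e+07 in the low class.

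The high libraries had shares of 5.02% at the lowest, 6.76% at the median and 14.4% at the highest, and the low libraries of 1.85%, 2.89% and 3.82%. Just inside the upper threshold lay KO/PEG_144 at 5.02%, and just outside lay KO/PEG_143 at 4.83%. At the lower threshold, KO/PEG_52 at 3.82% lay inside and KO/NTZ_24 at 4.35% outside. The ordered shares show no wide gap at either threshold, so the classes are the ends of a range rather than separate clusters. The 20 WT libraries had shares of 5.80% to 11.7%, with a median of 9.45%, and 9 of the 10 high libraries lay below that median. Both treatments were in both classes. Of the high libraries 8 carried animal numbers below 100 and 2 carried higher numbers, and of the low libraries 7 and 5 did.

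**Figure D1:**
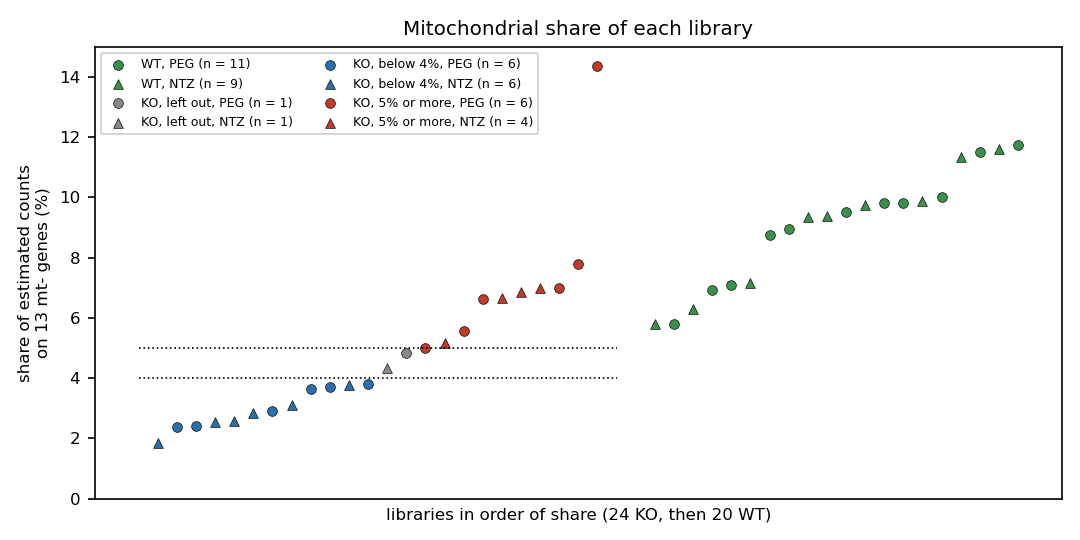
Mitochondrial share of each library (vertical axis, percent of estimated counts on the 13 mt- genes), with the 24 KO libraries in order of share on the left and the 20 WT libraries on the right. The dotted lines are the thresholds of 4% and 5%, and KO/PEG_46 at 14.4% lies far above the other KO libraries.

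The mitochondrial messenger RNAs did not all follow the share to the same degree. The following values are descriptions, with no test, since these genes define the classes. The mean share of a library's counts was 4.22 times larger in the high than in the low libraries for mt-Co1 (3.64 times without KO/PEG_46), the catalytic subunit of cytochrome c oxidase. For mt-Co2, its neighbour on the same strand, the factor was 1.44 (1.35 without KO/PEG_46), and for mt-Nd3, a complex I subunit, it was 1.36 (1.16). The gene on the other strand, mt-Nd6, had a factor of 1.45. The widest difference was in mt-Atp8, with a factor of 16.5 (10.03 without KO/PEG_46), followed by mt-Nd4l with 7.47 (5.07). The genes whose frames begin inside theirs had smaller factors, 2.74 for mt-Atp6 and 2.48 for mt-Nd4. Both wide differences were thus in the short upstream frames printed above.

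Set against its partner, mt-Atp8 had 1.90 counts per 100 mt-Atp6 counts in the lowest high library, 5.23 at the median and 18.5 in the highest, KO/PEG_46. In the low libraries the values were 0.832, 1.21 and 3.02, and the WT libraries lay at 13.7 to 20.8. The classes overlapped through KO/PEG_52 at 3.02, and KO/PEG_46 was the 1 KO library in the WT range. The counts behind these ratios were 2202 to 40440 for mt-Atp8 in the high and 154 to 1708 in the low libraries. The ratio of mt-Nd4l per 100 mt-Nd4 counts was 4.59, 6.41 and 12.7 in the high libraries, 1.61, 2.25 and 7.70 in the low and 9.55 to 14.5 in the WT libraries. Again KO/PEG_52, at 7.70, was the low library that lay among the high ones. Within the mitochondrial counts, mt-Co1 took 15.6% to 19.6% in the high, 4.20% to 18.7% in the low and 18.2% to 21.6% in the WT libraries, while mt-Co2 took 13.9% to 21.4%, 18.4% to 41.3% and 11.7% to 14.3%. In the low libraries, mt-Co2 was thus mostly a larger and mt-Co1 mostly a smaller part of the mitochondrial messenger RNA, and KO/PEG_52 was the 1 low library inside the high range for either. Across the 24 KO libraries the rank correlation (Spearman) with the share was 0.88 for the mt-Atp8 ratio, 0.83 for the mt-Nd4l ratio, 0.87 for mt-Co1 and -0.90 for mt-Co2, as a description, since each point takes both values from one library and the same mitochondrial reads. Reads of 75 bases from an overlap of frames are divided between the transcripts by the quantification, and the part this had in the ratios was not tested.

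Other properties of the libraries moved with the share, and they bear on every nuclear gene below. Each was compared by a two-sided permutation test of the difference of means over the 22 libraries with 100000 resamples, and the p-values were adjusted over the 6 values tested. The slope of a library's log2 levels on log2 gene length, relative to the mean KO library, was 0.0384 at the lowest, 0.107 at the median and 0.378 at the highest among the high libraries, and -0.185, -0.114 and 0.0140 among the low (permutation test, adjusted p = 6e-05). Every high library thus had relatively more counts on long genes than every low library. The WT libraries had slopes of 0.259 to 0.533, so KO/PEG_46 was the 1 KO library with a slope in the WT range. Messenger RNAs of cytosolic ribosomal proteins took 3.22% to 4.38% of the nuclear counts in the high libraries and 4.38% to 6.56% in the low, with medians of 3.76% and 5.93% (permutation test, adjusted p = 6e-05, from the smallest p that the resamples can give, 2e-05). The WT libraries were lower, at 1.45% to 2.54%.

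The 10 most abundant nuclear genes of each library took 8.05% to 16.1% of its nuclear counts in the high and 13.9% to 21.3% in the low class (permutation test, adjusted p = 0.000456). Transcripts annotated as retained introns took 2.33% to 3.30% and 2.45% to 3.999% (permutation test, adjusted p = 0.000456). Transcripts that could not be paired with a gene took 0.548% to 0.644% and 0.604% to 1.33% (permutation test, adjusted p = 8e-05). The retained intron and unpaired values are percents of the library total, mt- counts included. A larger mitochondrial share by itself lowers both to some degree. Library totals were larger in the high class, with medians of 1.78e+07 and 1.15e+07 (permutation test, adjusted p = 0.00266). None of these 6 differences fell on the other side of the threshold without KO/PEG_46. Across the 24 KO libraries the share had a rank correlation of 0.94 with the length slope, -0.95 with the ribosomal protein messenger RNA, 0.89 with the first principal component of nuclear expression (45.8% of the variance) and 0.51 with the library total. Within the 20 WT libraries the first and second of these were 0.55 and -0.25. In the 24 KO libraries the length slope had rank correlations of 0.95 with the mt-Atp8 ratio and 0.89 with the mt-Nd4l ratio. With the parts of the mitochondrial counts taken by mt-Co1 and mt-Co2 they were 0.84 and -0.90. All are descriptions, in which each point takes both values from one library. RNA integrity values were not used here, and the part of RNA quality, depth or length in the gene differences below cannot be told apart from the share with these libraries beyond the adjustments given.

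**Figure D2:**
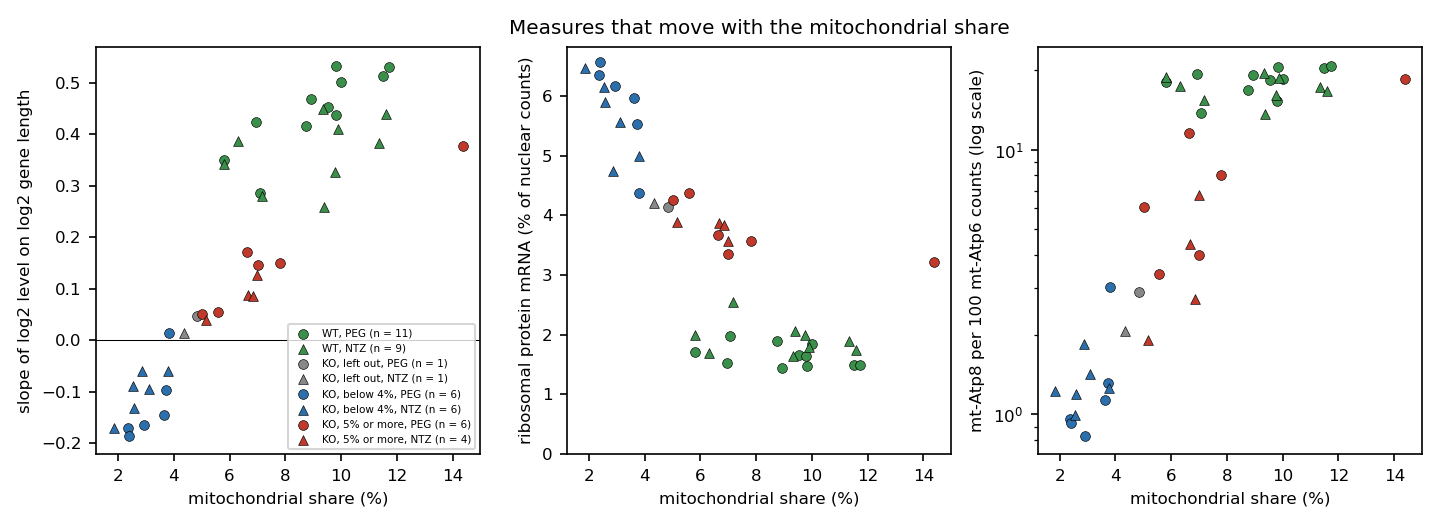
Length slope, ribosomal protein messenger RNA as percent of nuclear counts, and mt-Atp8 per 100 mt-Atp6 counts (log scale) against the mitochondrial share, 1 point per library. High libraries lie above every low library for the slope (0.0384 at the lowest against 0.0140 at the highest), and the WT libraries lie beyond the other 9 high libraries in the same direction for all 3 values.

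Of 14603 nuclear genes tested by edgeR's quasi-likelihood test with treatment as a covariate, 8287 (56.7%) passed a Benjamini-Hochberg adjusted p of 0.05, with 4348 (29.8%) higher and 3939 (27%) lower in the high libraries. In 153 genes (1.05%) every high library lay above every low library, and in 227 (1.55%) below. With this background, a list in which about 3 of 10 members pass in 1 direction does not stand out. Without KO/PEG_46 the counts were 4177 higher and 3862 lower, and without both libraries numbered 110 they were 4038 and 3798. With the library total as a further covariate 3744 (25.1%) were higher and 3257 (21.8%) lower. Within the PEG libraries alone 2818 (20.1%) were higher and 2765 (19.7%) lower, within the NTZ libraries alone 2763 (19.4%) and 2621 (18.4%), and among animals numbered below 100 3010 (20.1%) and 2962 (19.8%). In bulk tissue, fewer cells of a type and less RNA per cell cannot be told apart, which holds for each gene and list below.

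The differences followed gene length. Among the shortest of 10 bins of genes (38 to 950 bases) 57.4% were lower and 9.91% higher in the high libraries, with a median log2 difference of -0.55. Among the longest (5793 to 123179 bases) 62.2% were higher and 3.83% lower, with a median of 0.46. The median rose from each bin to the next. When the length slope of each library was added to the fit, 0 of 15548 genes passed by edgeR's quasi-likelihood test, and 1322 (8.50%) had an unadjusted p below 0.05; DESeq2 and limma were not run with it. With it and without KO/PEG_46, 1 gene passed, as lower. No call below held with the length slope as a covariate, with which the share had a rank correlation of 0.94. When instead a smooth curve of level against length was removed from each library, an alternative chosen after seeing the data, 3555 genes (24.3%) were higher and 3636 (24.9%) lower, and the counts of each list with it removed are given in parentheses or in words beside its own.

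**Figure D3:**
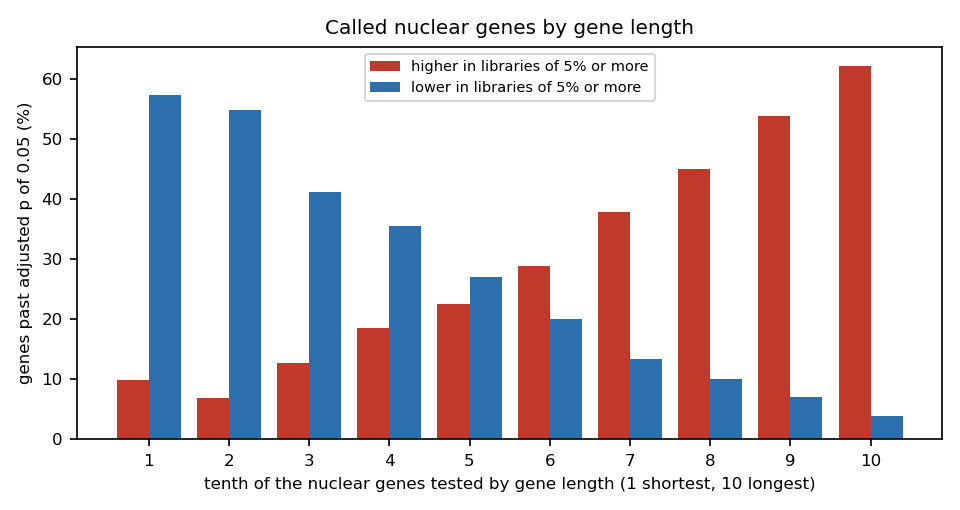
Percent of nuclear genes higher (red) and lower (blue) in the high libraries at an adjusted p of 0.05, in 10 bins from the shortest to the longest genes. The lower share falls from 57.4% to 3.83% and the higher share rises from 9.91% to 62.2%.

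Nuclear genes for subunits of the respiratory chain went the other way from the mitochondrial ones. Of the 77 tested, 65 were lower and 3 higher in the high libraries, with a median log2 difference of -0.72 against 0.04 over all nuclear genes. Their summed level was 12540 CPM in the lowest high library, 22440 at the median and 29190 in the highest, and 24420, 35250 and 43540 CPM in the low libraries, so the classes overlapped between 24420 and 29190 CPM. KO/PEG_46 was the lowest, and without it the high libraries began at 17320 CPM. The WT libraries, with more mitochondrial messenger RNA than most KO libraries, had sums of 16800 to 27500 CPM. These genes are mostly short: of the 58 under 1000 bases 55 were lower, where 57.3% of all 1588 such genes were lower, and their medians were -0.87 and -0.55. Of the 19 of 1000 bases or more, 10 were lower and 3 higher, where 23.3% and 32.3% of all such genes were. With the length curve removed, 38 of the 77 were lower and 13 higher, and their median was -0.21.

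In complex I, which takes electrons from NADH, 33 of 36 subunits were lower and 1 was higher (20 and 5 with the length curve removed). Ndufa2, an accessory subunit, had 75.0 CPM in the lowest high library, 155 at the median and 198 in the highest, against 190.5, 370 and 596 in the low libraries. Its log2 difference was -1.39 (SE 0.18, edgeR adjusted p = 5.95e-06), and the classes overlapped between 190.5 and 198 CPM. Ndufs6, Ndufb7 and Ndufa7 had log2 differences of -1.16, -1.18 and -1.17. The exception was Ndufs1, the largest subunit, which carries iron-sulfur clusters: its levels were 115, 126.4 and 167 CPM in the high and 72.4, 94.8 and 132 CPM in the low libraries (log2 difference 0.43, edgeR adjusted p = 0.00035). In complex II, which has no mitochondrially encoded subunit, the flavoprotein Sdha was higher by 0.36 and Sdhb and Sdhc were lower, by -0.41 and -0.46 (with the length curve removed 2 of the 4 subunits were higher and 1 lower); the calls of Sdhb and Sdhc were lost in the NTZ libraries alone, and that of Sdhb also with the length curve and KO/PEG_46 removed.

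In complex III 7 of 9 subunits were lower and 1 was higher (4 and 1 with the length curve removed). Uqcr10, a small subunit, had 156 to 349 CPM in the high and 349 to 634 CPM in the low libraries, with no overlap (log2 difference -0.85, SE 0.12). Uqcr11, Uqcrq and Uqcrh had log2 differences of -1.17, -1.12 and -0.98. Uqcrc2, a core subunit, went the other way, with 178, 216 and 298 CPM in the high and 58.8, 115.5 and 247 CPM in the low libraries (log2 difference 0.79, SE 0.18, edgeR adjusted p = 0.000834). The calls of Ndufs1, Sdha and Uqcrc2 were lost in the PEG libraries alone, where their log2 differences were 0.33, 0.19 and 0.58. In complex IV all 11 nuclear subunits tested were lower (6, with 1 higher, once the length curve was removed). Cox6a1 had 281, 686 and 931 CPM in the high and 830, 1685 and 2746 CPM in the low libraries (log2 difference -1.28, SE 0.19, edgeR adjusted p = 1.54e-05). The classes overlapped between 830 and 931 CPM. Cox7c, Cox4i1 and Cox8a had log2 differences of -1.31, -0.91 and -0.89.

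Of the 17 ATP synthase subunits tested 12 were lower and 5 did not pass (7 lower and 4 higher with the length curve removed). Atp5e, the smallest subunit of the catalytic part, had 141, 301 and 389 CPM in the high and 380, 720 and 1237 CPM in the low libraries (log2 difference -1.36, SE 0.18, edgeR adjusted p = 6.5e-06). Atp5g1, Atp5d and Atp5j2 had log2 differences of -1.09, -0.95 and -0.84. The 5 that did not pass were Atp5a1, Atp5b, Atp5c1, Atp5f1 and Atp5j. Copies and pseudogenes of these short genes can share reads with them, and how the quantification divided such reads was not tested.

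The ribosomal proteins moved in the same direction as the small respiratory subunits. Of the 78 cytosolic ribosomal proteins tested, 75 were lower in the high libraries, 22 of them without overlap, and their median log2 difference was -0.92 (57 lower and 2 higher with the length curve removed, median -0.39). These genes are short, with a median length of 637.5 bases. Of all genes of 38 to 950 bases 57.4% were lower, with a median log2 difference of -0.55. Over all nuclear genes tested 1.55% were lower without overlap. Rps28, of the small ribosomal subunit, had 95.9, 174 and 213 CPM in the high and 227, 492 and 893 CPM in the low libraries (log2 difference -1.59, SE 0.19, edgeR adjusted p = 5.88e-06). Every high library lay below every low one. Fau, whose product is processed into a ribosomal protein, Rps13 and Rpl26 had log2 differences of -1.68, -1.24 and -1.15. Rpl13a, Rpl4 and Rps7 did not pass, with log2 differences of -0.47, -0.07 and -0.09. Of the 78 proteins of the mitochondrial ribosome, which translates the 13 mitochondrial messages, 64 were lower, with a median of -0.53 (39 lower and 10 higher with the length curve removed). Their median length was 1133 bases. Of all genes of 951 to 1406 bases 54.7% were lower, with a median of -0.40. Mrpl54 had 30.5 to 76.4 CPM in the high and 70.3 to 180 CPM in the low libraries (log2 difference -1.18, SE 0.15), and Mrpl12, Mrps15 and Mrpl4 had log2 differences of -1.05, -0.83 and -0.74. Many cytosolic ribosomal protein genes have near-identical pseudogenes, so their counts are uncertain.

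**Figure D4:**
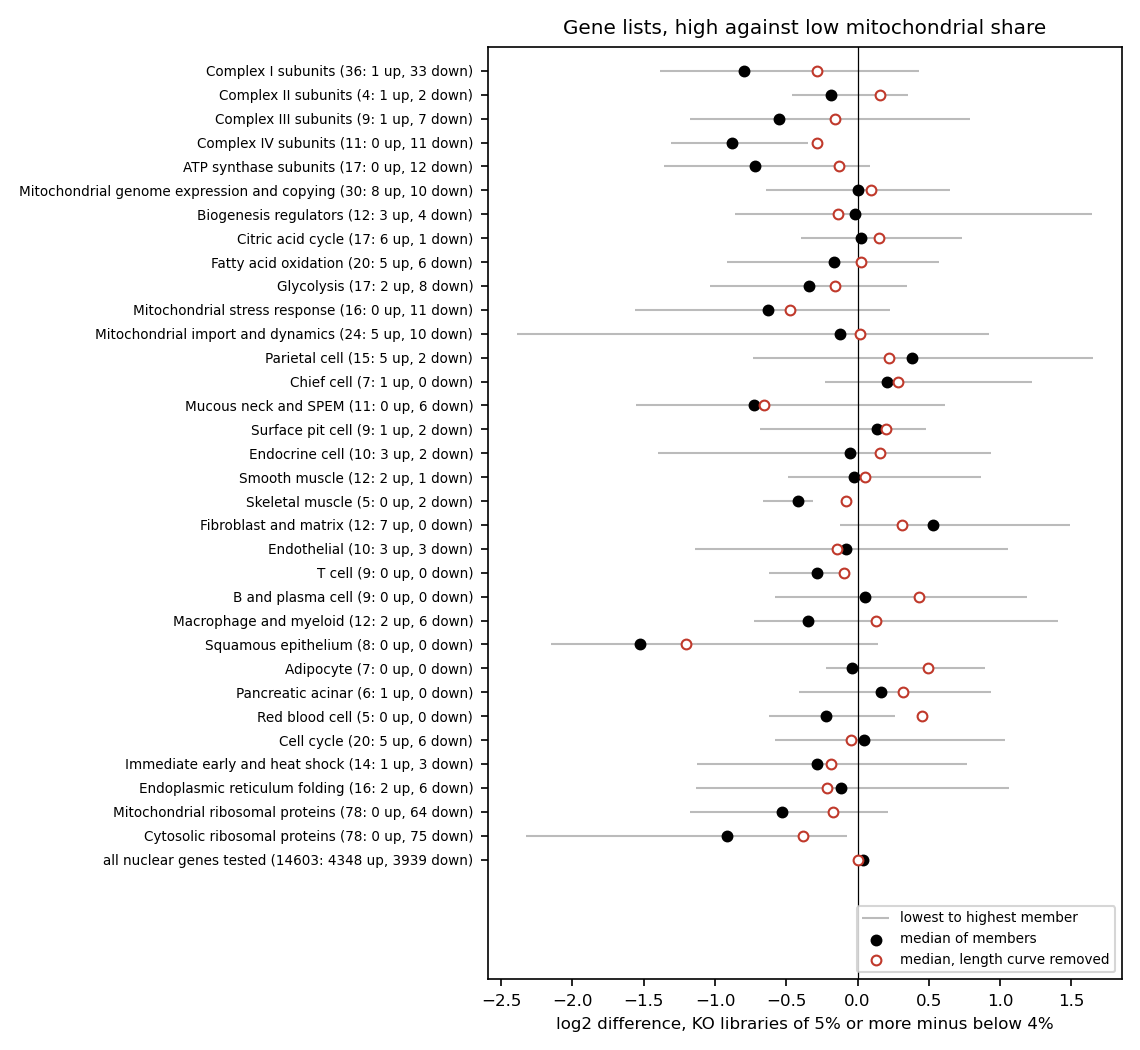
Log2 difference of high minus low libraries for each list of genes, with the median (filled), the range of the members (line) and the median after removal of each library's length curve (open). The numbers of members tested, higher and lower stand beside the names; the medians of the nuclear respiratory lists lie nearer to 0 once the length curve is removed.

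Of 30 genes that copy and express mitochondrial DNA 8 were higher and 10 lower (11 and 7 with the length curve removed), with a median of 0.00. Both counts are near the shares of all genes, 29.8% higher and 27% lower, so the list does not stand out. Tfam, which packages mitochondrial DNA and starts its transcription, had 29.5, 34.8 and 37.3 CPM in the high and 25.8, 32.9 and 36.9 CPM in the low libraries (log2 difference 0.08, edgeR adjusted p = 0.358), and its sign turned when the length curve was removed (-0.08). Polrmt, the mitochondrial RNA polymerase, had 13.2, 17.1 and 20.2 CPM against 17.9, 19.8 and 22.6 CPM (log2 difference -0.21, edgeR adjusted p = 0.0145), a call that was lost within either treatment alone, among animals numbered below 100 and without KO/NTZ_25. The polyadenylating enzyme Mtpap was higher by 0.58 and Pnpt1, an RNA-degrading phosphorylase, by 0.50. The topoisomerase Top1mt fell by 0.52 with no overlap between the classes, and the RNA-binding protein Slirp, which stabilises mitochondrial messages, fell by 0.64, a call that was lost with the length curve removed.

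Of the 12 biogenesis regulators tested 3 were higher and 4 lower, also with the length curve removed, which is again near the shares of all genes. Esrrg, an orphan nuclear receptor that drives oxidative metabolism and is known from parietal cells, had 16.6, 42.0 and 83.3 CPM in the high and 6.59, 10.4 and 36.4 CPM in the low libraries, against 136 to 343 CPM in the WT libraries. Its log2 difference was 1.64 (SE 0.25, edgeR adjusted p = 1.55e-05), or 1.55 without KO/PEG_46 and 1.29 with the length curve removed. The classes overlapped between 16.6 and 36.4 CPM. Gabpa, a transcription factor of respiratory genes, was higher by 0.98. The coactivator Ppargc1a had 2.67, 5.91 and 7.59 CPM in the high and 2.13, 2.96 and 6.15 CPM in the low libraries (log2 difference 0.75, edgeR adjusted p = 0.00441), and its call was lost in the NTZ libraries alone (adjusted p = 0.112) and with the length curve removed (0.163). Esrra, the close relative of Esrrg, fell by 0.48, and the lysosomal regulator Tfeb fell by 0.86. The paralogs Esrrg and Esrra thus differed in opposite ways.

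Of 17 genes of the citric acid cycle 6 were higher and 1 was lower, the same counts as with the length curve removed. Their median length was 2484 bases, and of all genes of 2202 to 2636 bases 22.4% were higher and 26.9% lower. Dld, a subunit shared by several dehydrogenase complexes, had 95.6, 114 and 147.4 CPM in the high and 48.8, 68.9 and 96.9 CPM in the low libraries (log2 difference 0.73, SE 0.11, edgeR adjusted p = 1.42e-05; 0.72 with the length curve removed). Only the values between 95.6 and 96.9 CPM were shared by the classes. Idh3a and Dlat were higher by 0.35 and 0.26, and Suclg1 was the lower one, at -0.40. The Idh3a call was lost in the PEG libraries alone, the Suclg1 call in the NTZ libraries alone, and those of Dlat and Suclg1 with the length curve removed. Of 20 genes of fatty acid oxidation 5 were higher and 6 lower, with a median of -0.16. With the length curve removed 6 were higher and 3 lower, with a median of 0.02. Their median length was 1887 bases, and of all genes of 1805 to 2201 bases 18.4% were higher and 35.5% lower. Cpt1a, which admits fatty acids to the mitochondrion, was higher by 0.55 and Etfdh by 0.40, whereas Etfb fell by 0.91 and Decr1 by 0.36. Of 17 glycolytic genes 8 were lower and 2 higher (7 and 1 with the length curve removed). The glycolytic list had a median length of 2413 bases, where 26.9% of all genes of 2202 to 2636 bases were lower and 22.4% higher. Gapdh, Eno1, Pfkl and Aldoa had log2 differences of -1.04, -0.77, -0.72 and -0.43. The Etfdh call was lost in the PEG libraries alone. Gapdh has many pseudogenes, so its value is uncertain.

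Of 16 genes of the mitochondrial stress response 11 were lower in the high libraries, against a background of 27%, and 10 were lower with the length curve removed. Their median log2 difference was -0.63, or -0.48 with that curve removed. The list had a median length of 1892 bases, and of all genes of 1805 to 2201 bases 35.5% were lower. Clpp, a protease of the matrix, had 26.9, 44.8 and 54.7 CPM in the high and 52.3, 89.8 and 131 CPM in the low libraries (log2 difference -1.02, SE 0.13, edgeR adjusted p = 5.88e-06). Ddit3 and Atf4, transcription factors of the integrated stress response, had log2 differences of -1.08 and -0.61, and Shmt2, of mitochondrial folate metabolism, fell by 0.65. When the library total was added to the fit, 6 of the 16 were lower and 1 was higher. Among 24 genes of import and dynamics 10 were lower and 5 higher (9 and 8 with the length curve removed). Their median length was 1758 bases, and of all genes of 1407 to 1804 bases 41.1% were lower and 12.6% higher. The fission genes Fis1 and Dnm1l differed in opposite directions, by -1.19 and 0.92, and Timm50, of the inner membrane translocase, fell by 0.91.

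Among the cells of the gland, the markers of mucous neck cells and SPEM that passed were lower in the high libraries. Of 11 tested 6 were lower and none passed as higher, against a background of 27% lower, with a median log2 difference of -0.72. Their median length was 1808 bases, and of all genes of 1805 to 2201 bases 35.5% were lower. With the length curve removed 4 of the 11 were lower, against a background of 24.9%, and the median was -0.65. The summed level of the list was 14930, 25580 and 40590 CPM in the high and 19330, 58220 and 73620 CPM in the low libraries, against 2081 to 3688 CPM in the WT libraries. All libraries of both classes were thus far above the WT range. Tff2, the spasmolytic polypeptide, had 932, 7340 and 15290 CPM in the high and 2673, 25320 and 32620 CPM in the low libraries (log2 difference -1.50, SE 0.44, edgeR adjusted p = 0.00581). The lowest value of each class was in KO/PEG_46 and KO/PEG_52. The Tff2 call was lost with the library total in the fit (adjusted p = 0.117), in the PEG libraries alone (0.0854), in animals numbered below 100 (0.207) and with the length curve removed (0.0839).

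Wfdc2, a secreted protease inhibitor that marks SPEM, had 363, 822 and 1250 CPM in the high and 445, 1812 and 3645 CPM in the low libraries (log2 difference -1.28, SE 0.28, edgeR adjusted p = 0.000617), and it passed in either treatment alone and with the length curve removed (-0.65, adjusted p = 0.0372), but not once KO/PEG_46 was left out as well (adjusted p = 0.0608). Gpx2, a glutathione peroxidase, fell by 1.29 and passed in each of these settings. Clu (clusterin) had 3709, 10070 and 13540 CPM against 9842, 17110 and 24220 CPM (log2 difference -0.72, edgeR adjusted p = 0.00582; 0.144 in the PEG libraries alone and 0.0542 among animals numbered below 100). Aqp5 and Gkn3 had log2 differences of -1.55 and -0.98, and both calls were lost among animals numbered below 100, that of Aqp5 also in the PEG libraries alone and with the library total in the fit, and that of Gkn3 in the NTZ libraries alone and with the length curve removed. Muc6, a mucin of the neck cells, did not pass, at -0.72 (SE 0.49, edgeR adjusted p = 0.214), except without KO/PEG_32 (log2 difference -1.12, adjusted p = 0.049). Of the 6 lower members, Gpx2 was thus the one whose call held in every setting tried except those with the length slope.

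Parietal cell markers did not move as 1 group. Of 15 tested 5 were higher and 2 lower (4 and 2 with the length curve removed), with a median of 0.38. Their median length was 3143 bases. Of all genes of 3097 to 3667 bases 37.7% were higher and 13.4% lower, so the list does not stand out. Atp4a, the catalytic subunit of the proton pump, had 2050, 3426 and 7521 CPM in the high and 2061, 3276 and 6311 CPM in the low libraries (log2 difference 0.05, SE 0.21, edgeR adjusted p = 0.859). Both classes spanned nearly the same range, with every library below the WT median of 8035 CPM. Atp4a passed as higher in the NTZ libraries alone (0.52, adjusted p = 0.0343) and was at -0.34 in the PEG libraries (adjusted p = 0.409), and the test of that difference gave a log2 value of 0.84 (edgeR adjusted p = 0.999). Slc26a7, an anion exchanger of the basolateral membrane, had 1.59, 5.59 and 11.8 CPM in the high and 1.43, 2.18 and 4.33 CPM in the low libraries, against 17.4 to 76.2 CPM in the WT libraries (log2 difference 1.45, SE 0.28, edgeR adjusted p = 0.000142). Chrm3, the muscarinic receptor of parietal cells, was higher by 0.51 and Ezr by 0.24, and both calls were lost in the PEG libraries alone and with the length curve removed. The Ezr call was also lost in the NTZ libraries alone. Ckb, a creatine kinase, fell by 0.73. Of 7 chief cell markers only Mfsd4a passed, at 0.50, and 1 was higher with the length curve removed.

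Of 9 surface pit cell markers Vsig1 was higher by 0.48, and Psca and Tff1 had log2 differences of -0.62 and -0.69, calls that were lost within either treatment alone and with the length curve removed (1 of the 9 higher and 0 lower). Both of these calls were also lost without KO/NTZ_51, and that of Tff1 without KO/PEG_53. Of 10 endocrine markers 3 were higher and 2 lower (2 and 1 with the length curve removed). Chga (chromogranin A), the general NE marker, had 649, 1025 and 2111 CPM in the high and 568, 903 and 2473 CPM in the low libraries (log2 difference -0.22, edgeR adjusted p = 0.26). Hdc, which makes histamine in ECL cells, had 16.1, 42.6 and 122 CPM against 12.5, 29.7 and 95.8 CPM (log2 difference 0.10, edgeR adjusted p = 0.687). Neither difference passed the test. Slc18a2, the vesicular monoamine transporter of ECL cells, was higher by 0.93, whereas Pcsk1n and Ghrl had log2 differences of -1.40 and -0.44. Chgb was higher by 0.48, a call that was lost without KO/PEG_46 (0.40, adjusted p = 0.0635) and without KO/PEG_53. The calls of Slc18a2 and Chgb were lost in the PEG libraries alone, and that of Ghrl within either treatment alone.

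Fibroblast and matrix genes were more often higher in the high libraries. Of 12 tested 7 were higher and none passed as lower, against a background of 29.8% higher, with a median of 0.53 (5 higher with the length curve removed, median 0.31). Their median length was 3498 bases, and of all genes of 3097 to 3667 bases 37.7% were higher and 13.4% lower. Lum (lumican), a proteoglycan of the collagen matrix, had 11.6, 20.4 and 27.7 CPM in the high and 2.13, 6.22 and 20.3 CPM in the low libraries (log2 difference 1.49, SE 0.28, edgeR adjusted p = 0.000147). Its difference was also 1.49 with the length curve removed. Pdgfra, a growth factor receptor of fibroblasts, was higher by 0.86, Postn by 0.79 and Col1a2 by 0.62. The summed level of the list was 851, 1119 and 1374 CPM in the high and 470, 664 and 1523 CPM in the low libraries, the highest low value lying above all high ones.

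Of 10 endothelial genes 3 were higher and 3 lower (2 and 3 with the length curve removed): Tek and Kdr, receptors of the vessel wall, were higher by 1.05 and 0.80, and Pecam1 and Plvap had log2 differences of -1.14 and -0.49. Of 12 myeloid genes 6 were lower and 2 higher (1 and 2 with the length curve removed). Their median length was 1146 bases, and of all genes of 951 to 1406 bases 54.7% were lower and 6.85% higher. The complement genes C1qa and C1qc had log2 differences of -0.72 and -0.53 and Tyrobp of -0.56, and the calls of C1qa and C1qc were lost with the length curve removed, where Tyrobp was at 0.02. Ptprc, the pan-leukocyte receptor CD45, was higher by 1.40 (SE 0.41), or 0.96 without KO/PEG_46, where it was at 37.2 CPM, and its call was lost in the NTZ libraries alone (adjusted p = 0.224). The calls of C1qc and Tyrobp were lost there as well. Of 12 smooth muscle genes Mylk and Synpo2 were higher by 0.87 and 0.80 and Tagln fell by 0.49; the calls of all 3 were lost in the PEG libraries alone and with the length curve removed, and the Synpo2 call was lost without any 1 of 8 libraries, KO/PEG_46 among them (0.46, adjusted p = 0.131).

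None of the 9 T cell, 9 B and plasma cell, 8 squamous epithelium, 7 adipocyte and 5 red blood cell markers passed by edgeR, DESeq2 or limma-trend. By edgeR's unadjusted p below 0.05 the counts were 0, 1, 1, 0 and 0. With the length curve removed 1 B and plasma cell marker was higher and 0 of the others passed by edgeR. Summed red blood cell markers reached 4401 CPM in KO/PEG_46 and 4074 CPM in KO/PEG_52, from lowest values of 125 and 205 CPM in the high and low classes, so the highest library of each class stood out for blood. Of 20 cell cycle genes 5 were higher and 6 lower (3 and 3 with the length curve removed). Of 16 genes of protein folding in the endoplasmic reticulum 6 were lower and 2 higher (4 and 4 with the length curve removed). The median length of this list was 2286 bases, and of all genes of 2202 to 2636 bases 26.9% were lower and 22.4% higher. Manf and Sdf2l1 had log2 differences of -1.13 and -0.77, and Canx and Dnajb9 were higher by 0.84 and 1.06. The Sdf2l1 call was lost in the NTZ libraries alone and with the length curve removed. Of 14 immediate early and heat shock genes 3 were lower and 1 higher, the same counts as with the length curve removed, with Junb lower by -0.98 and Fos higher by 0.77, a call that was lost in the NTZ libraries alone. Of 5 skeletal muscle genes Tnni2 and Mylpf were lower, at -0.67 and -0.54, and of 6 pancreatic genes Cpb1 was higher, at 0.91. Mylpf lay at 0.797 to 1.93 CPM in the high and 0.696 to 3.17 CPM in the low libraries. Cpb1 lay at 0.435 to 1.85 and 0.213 to 1.41 CPM, so some of these values rest on few counts. With the length curve removed 1 of the 5 was lower and 2 of the 6 were higher.

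The smallest p-values among higher genes belonged to genes with long transcripts. Rb1, the retinoblastoma tumour suppressor, had 12.3, 15.3 and 21.7 CPM in the high and 6.06, 7.54 and 10.4 CPM in the low libraries, with no overlap (log2 difference 1.04, SE 0.10, edgeR adjusted p = 4.8e-06). Cpeb4, a regulator of translation through the poly(A) tail, had 12.7, 22.7 and 47.0 CPM against 4.46, 5.84 and 11.8 CPM, again without overlap (log2 difference 1.88, SE 0.20). Plagl1 (2.67), Rock1 (1.54), Zfp946 (1.30), Slc30a4 (1.14), Xpo1 (1.12), C1galt1 (0.87), Arih1 (0.79) and Rnf103 (0.60) were the others, as log2 differences. All 10 had transcript lengths above the median of 2636 bases. The smallest p-values among lower genes were those of Ccdc107 (-0.96), Fxyd1 (-1.08), Rad9b (-1.88), Znhit2 (-1.15), Rpl26 (-1.15), Ddx49 (-0.85), Thap7 (-0.91), Rps28 (-1.59), Fuom (-1.08) and Trnau1ap (-0.94). Of these 10 every one was below that median.

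**Figure D5:**
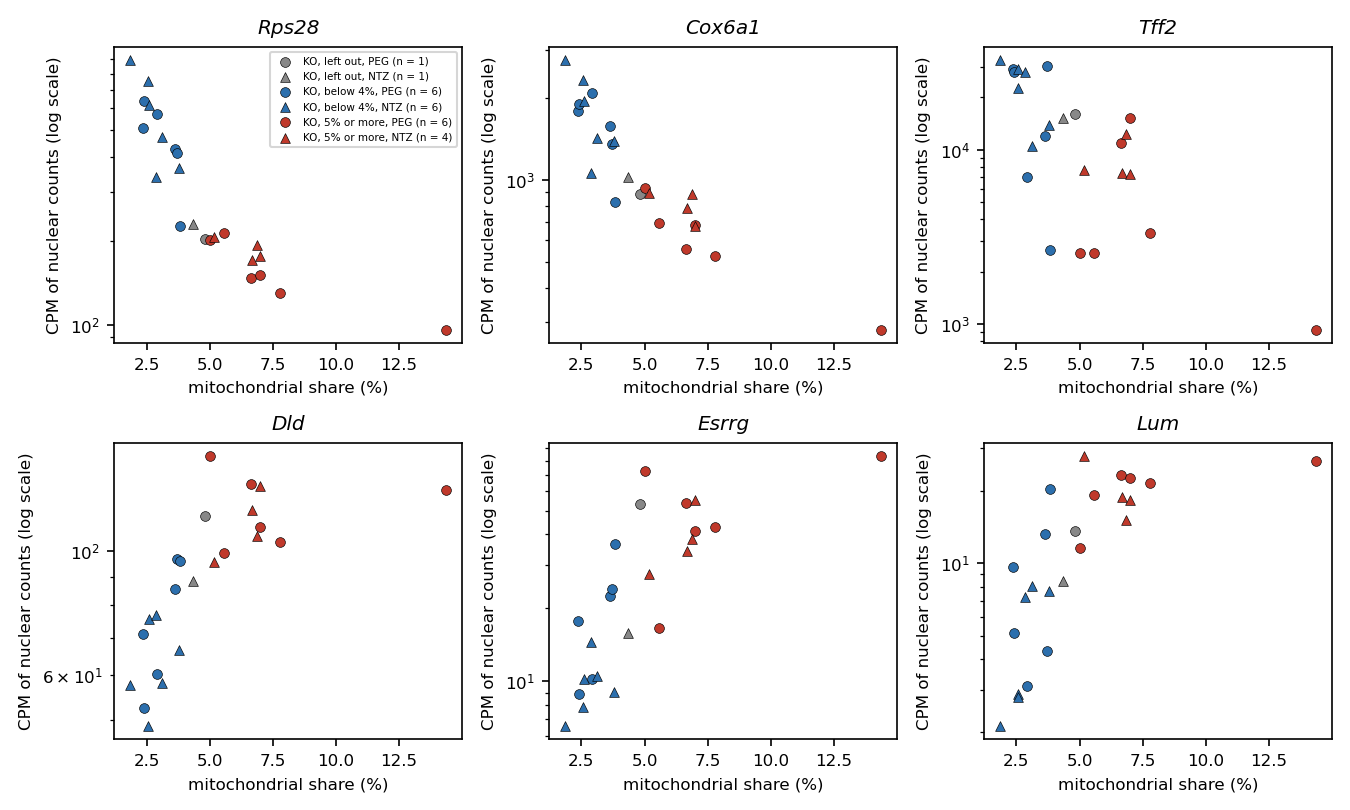
Levels (CPM of nuclear counts, log scale) of Rps28, Cox6a1, Tff2, Dld, Esrrg and Lum against the mitochondrial share in the 24 KO libraries, with circles for PEG and triangles for NTZ. The high libraries lie below the low ones for Rps28 (at most 213 against at least 227 CPM), and mostly above them for Dld, Esrrg and Lum.

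The WT libraries, which took no part in the choice of classes, were used to ask whether nuclear genes follow the share there. In the 20 WT libraries 0 of 14515 genes had a slope on the log2 share that passed by edgeR's quasi-likelihood test, and 2752 (19.0%) had an unadjusted p below 0.05; DESeq2 and limma were not run on it. Since WT/PEG_172_1 and WT/PEG_172_2 share an animal number, there are fewer WT mice than libraries; with this pair summed into 1 sample, 0 of 14511 genes passed by the same test, with an unadjusted p below 0.05 in 1250 with a positive and 1465 with a negative slope. Of 8053 genes called between high and low KO libraries and tested in the WT, 1819 (22.6%) had an unadjusted p below 0.05, of which 1656 had the same sign. The share had a rank correlation of 0.55 with the length slope across the WT libraries too. The part of gene length in this agreement of signs was not tested. Of the 77 respiratory subunits 63 had a negative slope and 3 an unadjusted p below 0.05, where 50.8% of all 13893 genes tested in both genotypes had a negative slope. Of the 58 subunits under 1000 bases 48 did, near the 80.6% of all 1334 such genes. The range of shares in the WT, 5.80% to 11.7%, is narrower in fold than in the KO libraries. Whether the difference between classes depended on treatment was tested as an interaction: 1 of 14938 genes (0.00669%) passed, and 582 (3.90%) had an unadjusted p below 0.05.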

How the data were processed

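RNA from the gastric corpus was sequenced after poly-T selection with the TruSeq Stranded mRNA kit as single reads of 75 bases. The authors quantified GRCm38 transcripts with kallisto 0.42.4 and deposited the estimated counts (expected count per transcript) used here. Of 94080 transcripts, 92284 were paired with GENCODE vM21 genes, and 1796 were not paired and entered only the totals. Counts were summed per gene, the 13 mt- genes were removed, and the sums were rounded. Levels are CPM, the count scaled by the library's sum over the remaining 31425 nuclear genes and by its TMM factor over all 44 libraries. Before the TMM factor, 3 counts correspond to 0.148 to 0.510 CPM in the KO libraries. Gene length is the mean transcript length weighted by count. The high and low libraries were compared with edgeR 4.0.16 (R 4.3.3): filterByExpr (minimum count 10, minimum total 15), TMM, the quasi-likelihood test with treatment as covariate, and Benjamini-Hochberg adjustment at 0.05 over all genes tested. On simulated counts of 14603 genes with 200 changed, this test made 193 calls, 7 of them false (3.63%), and found 88% of 2-fold and 98% of 4-fold changes. DESeq2 1.42.0 made 221 calls with 13.6% false and limma 3.58.1 made 196 with 5.61%. The simulation drew each gene independently and changed few genes. It held no trend shared across genes, so these rates do not carry over to the calls reported here. Single values per library were compared by permutation tests (Python 3.11.15).

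The classes and the gene lists were chosen with earlier results of these data known, so list counts are descriptions. Named genes were the 10 with the smallest p in each direction (mean of at least 5 CPM, no gene-model names), up to 4 passing members per list with the smallest p (where none passed, up to 2 of highest level), 12 set genes and the mt- genes; some were left out for length, and Rpl13a, Rpl4, Rps7 and the 5 ATP synthase genes that did not pass were named after their values were seen. Alternatives covered normalization, filters, covariates, tools, subsets and each library left out; the removal of length curves, the length slope without KO/PEG_46 or in the WT, the sum of WT/PEG_172_1 and WT/PEG_172_2, and the single values without KO/PEG_46 were chosen after seeing the data. The gene that passed the interaction test is not reported here. Replicates of 1 group were not pooled. The authors' own test results were not used.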

Additional observations from a re-analysis of the deposited data

Results flagged for a closer look

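Among the 10 high libraries, a highest or lowest value far from the others was found in 14 of 132 groups of values checked (Dixon's test, critical value 0.466). Chance gives about 5% where values are normally distributed and groups independent. These groups are untransformed values from the same 10 libraries, so the count does not measure an excess over chance. The mitochondrial share, which chose the libraries, was not among the groups checked. KO/PEG_46 had the highest share of retained introns, 3.30% against 2.71% in the next library, and the highest length slope, 0.378 against 0.172. It also had the highest Ptprc level, 37.2 against 11.6 CPM, and the lowest Decr1 level, 41.7 against 56.0 CPM.

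KO/PEG_144, the high library with the smallest share, had the highest levels of Ndufs1 (167 against 137.1 CPM in the next), Uqcrc2 (297.5 against 225 CPM), Idh3a (119 against 96.4 CPM), Dlat (74.1 against 64.1 CPM), Atp4a (7521 against 4958 CPM) and Chga (2111 against 1357 CPM). KO/NTZ_51 had the highest levels of Gpx2 (1192 against 631 CPM), Manf (386 against 240.8 CPM) and Sdf2l1 (94.9 against 59.4 CPM). KO/NTZ_25 had the highest level of the disrupted gene Atp4b, 43.4 against 18.3 CPM.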

How the results depend on the processing

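The counts of higher and lower genes stayed within 1.5 times of the reported 4348 and 3939 under other normalization, filters, tools, covariates for series and total, the division at the median share and the slope on the share. They ran from 4000 to 4572 and from 3550 to 4185 when each library was left out. Within the PEG libraries alone 2818 genes were higher, and within the NTZ libraries alone 2763 were higher and 2621 lower, with fewer libraries. With the length slope added 0 were higher and 0 lower, and also without KO/PEG_46 0 were higher and 1 lower. In the WT libraries with the length slope added 1 was higher and 1 lower. No paired analysis was possible because the KO/PEG and KO/NTZ libraries share only number 110. The named genes gave 2662 values with 1 library left out, of which 2641 kept direction and side of the threshold, 14 lost the call, 1 gained it and 6 reversed.

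Signs turned, on the log2 scale, as follows, and the cause was not tested. PEG libraries alone: Atp4a -0.34 and Hdc -0.20. NTZ libraries alone: Chga 0.13. With 1 library left out, Atp4a ran from -0.089 to 0.13 and Hdc from -0.012 to 0.19. With the length curve removed: Tfam -0.080, Atp4a -0.11, Ghrl 0.18 and Tyrobp 0.023, and without KO/PEG_46 also Sdhb 0.029, Tfam -0.052, Atp4a -0.056, Ghrl 0.14 and Tyrobp 0.018. With the length slope added 18 named genes turned: Sdhc 0.14, Sdhb 0.20, Atp5d 0.0025, Slirp 0.065, Esrra 0.10, Suclg1 0.30, Decr1 0.030, Aldoa 0.074, Tff2 0.028, Clu 0.028, Muc6 0.086, Psca 0.076, Tff1 0.044, Plvap 0.14, Ptprc -0.57, Mylk -0.64, Synpo2 -0.78 and Sdf2l1 0.25. With the slope added and without KO/PEG_46, 38 turned: Ndufb7 0.037, Ndufa7 0.0079, Sdhc 0.18, Sdhb 0.082, Uqcr11 0.019, Uqcrq 0.083, Uqcrh 0.043, Uqcr10 0.052, Cox8a 0.0046, Cox7c 0.093, Cox6a1 0.11, Cox4i1 0.085, Atp5e 0.0026, Atp5g1 0.22, Atp5j2 0.020, Atp5d 0.037, Rps13 0.014, Slirp 0.27, Esrra 0.17, Suclg1 0.24, Cpt1a -0.12, Gapdh 0.079, Eno1 0.047, Pfkl 0.20, Aldoa 0.069, Shmt2 0.052, Timm50 0.031, Gpx2 0.67, Gkn3 0.60, Ghrl 0.073, Chga 0.12, Hdc -0.014, Plvap 0.37, Ptprc -0.012, Mylk -0.74, Synpo2 -0.60, Manf 0.23 and Sdf2l1 0.54. Low libraries had smaller totals, and levels near 0.510 CPM rest on few counts.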
